A study of Sus scrofa with 4 samples.

Results

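Vascular stem cells from pig muscle and from pig subcutaneous fat were put through the same adipogenic induction, and the response of each miRNA in one origin was set against its response in the other. For every miRNA the log2 ratio of the induced over the uninduced library was taken in each origin, and the ratio of the muscle cells was subtracted from that of the fat cells. A positive difference therefore means that the miRNA rose more, or fell less, in the fat cells, and a negative one the reverse. The members were chosen by abundance: 155 of the 189 pig miRNAs with a read reached 10 CPM (reads scaled to a library total of 1000000 miRNA reads) in 1 library or more, and 110 of them reached 100 CPM. This choice is not wholly free of the response. Of the 155, 4 passed through the uninduced muscle cells alone, 2 through the induced muscle cells alone and 3 through the induced fat cells alone.

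The 4 groups had 1 library each (n = 1). IVSC were primary cells from the dorsal longissimus dorsi, the long muscle of the back, and SVSC were primary cells from subcutaneous fat. All were at passage 1 in DMEM/F12 with 20% FBS and penicillin-streptomycin, IVSC having been plated more densely than SVSC. IVSC MDI and SVSC MDI were induced after confluence with a mixture called MDI, of insulin at 5 mg/l, the glucocorticoid dexamethasone at 0.25 µM and IBMX, which blocks phosphodiesterases, at 0.5 mM. The latter pair was left out after 3 days, the growth medium came back at day 6, and the cells were kept for a further 3 or 4 days. The sources used here do not give which of these applied to which library, when the uninduced cells were harvested, or whether the cultures came from 1 animal or several. The labels call all 4 samples adipose derived, the muscle samples included, and the tissue label was followed here.

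A miRNA is a short RNA cut from a hairpin precursor, and it lowers the output of the mRNAs it pairs with, mostly through bases near its 5′ end, the seed. Members of a family share the seed, while members of a cluster share a primary transcript and may differ in seed. In fat cell formation, miR-143, the miR-30 family and miR-148a are known to favour differentiation and let-7 and the miR-130 family to oppose it. miR-1, miR-133 and miR-206 mark skeletal muscle, and the imprinted DLK1-DIO3 locus encodes a large miRNA cluster.

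The libraries held 2573249 (SVSC MDI) to 17937121 (SVSC) miRNA reads, so that 3 reads, as many as a count of 0 could hide, stood for 0.167 to 1.17 CPM. SVSC MDI was the shallowest library and also stood apart in its makeup: 38.5% of its reads lay on other Ensembl non-coding RNAs, against 14.0% to 19.3% in the other 3. The part of this library's depth and makeup in the differences below was not tested. With 1 library per group there was no spread between replicates and no p-value. The intervals given are exact 95% intervals that cover counting error only, and a difference between libraries may hold differences between animals or preparations. Fewer cells of a type and less RNA per cell cannot be told apart in such bulk samples. A response was called at a 2-fold change whose interval excluded 1, and a difference of response at 2-fold (1 on the log2 scale) with an interval that excluded 0. "Rose" and "fell" are used for called changes.

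The responses differed in size between the origins. In IVSC 26 miRNAs rose and 36 fell with induction (40% of the 155 called, 16.8% upward and 23.2% downward), and in SVSC 54 rose (34.8%) and 32 fell (20.6%), 55.5% in all. The median absolute log2 response was 0.75 in IVSC and 1.22 in SVSC, and for 113 of the 155 miRNAs the absolute response was the larger in SVSC (96 to 105 under the 4 other scalings below). Of all 155, 22 rose in both origins and 15 fell in both. A further 28 rose and 17 fell in SVSC beside an IVSC change without a call, and 4 rose and 17 fell in IVSC beside such a change in SVSC. In 4 cases the calls were opposite, each time a fall in IVSC and a rise in SVSC.

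**Figure D1:**
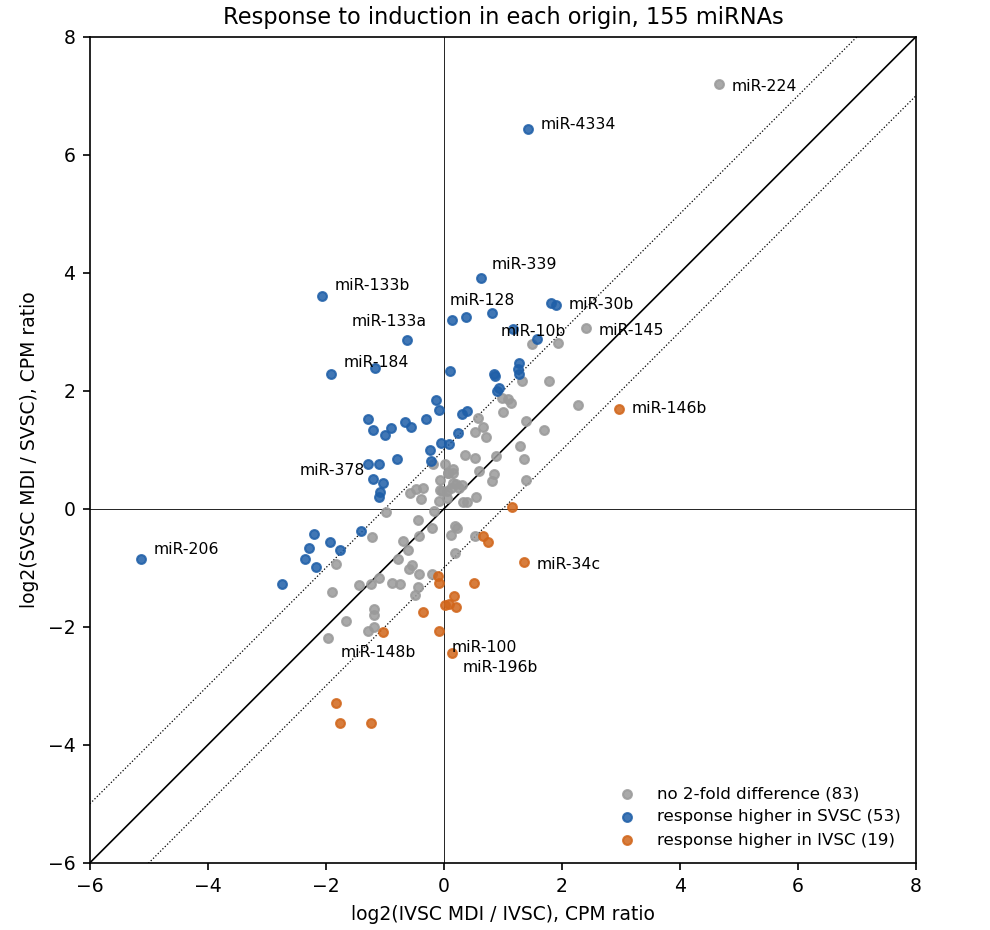
Log2 ratio of induced over uninduced CPM in IVSC (horizontal) and in SVSC (vertical) for 155 miRNAs, 1 point each, with the line of equal response (solid) and 2-fold differences from it (dotted). The 53 blue points above the band responded higher in SVSC and the 19 orange points below it higher in IVSC. miR-224, grey at the top right, rests on 1 read in SVSC.

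The difference itself was called for 72 miRNAs (46.5%): 53 were higher in SVSC (34.2%) and 19 higher in IVSC (12.3%), and 83 were without a call. The median difference was 0.53, with quartiles of -0.37 and 1.30. This imbalance rested on the scaling, because each scaling moves every difference by the same amount. Scaling by TMM, by DESeq2 size factors, to all reads and to miRNA reads without miR-21, the most abundant miRNA, moved the differences by -0.46, -0.41, -0.70 and -0.48. The median difference was then 0.07, 0.13, -0.17 and 0.05. The split of higher in SVSC against higher in IVSC became 30 and 31, 33 and 29, 24 and 42, and 29 and 32. With the median difference set to 0 it was 28 and 36. The calls made under all 5 scalings were 24 higher in SVSC and 19 higher in IVSC. The order of the miRNAs does not depend on the scaling, and the differences named below are best read against the median of 0.53.

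**Figure D2:**
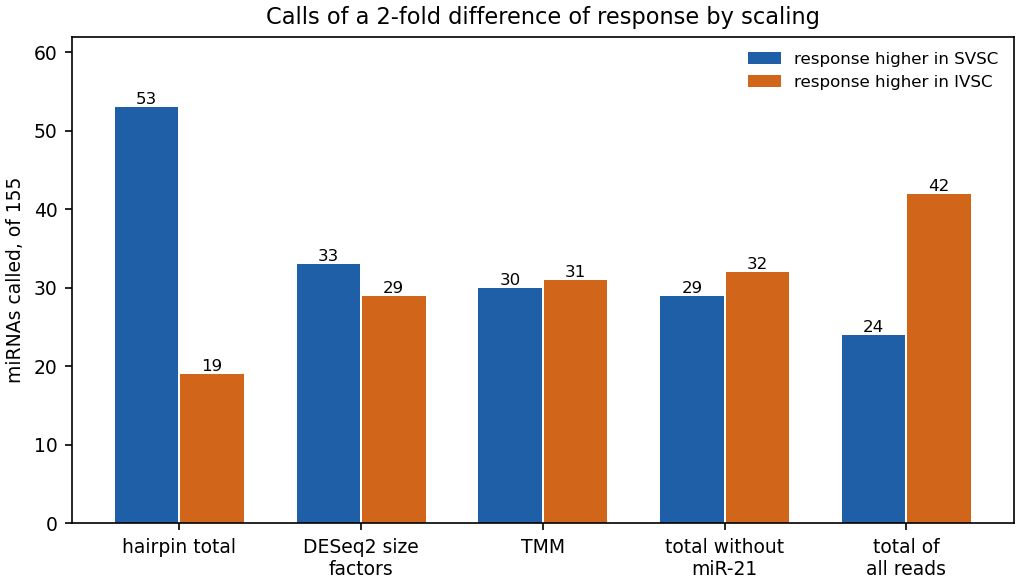
Number of miRNAs, of 155, with a 2-fold difference of response called higher in SVSC or higher in IVSC under each of 5 scalings (bars, from 0). Scaling to miRNA reads gives 53 and 19, while the other 4 give 24 to 33 and 29 to 42.

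The 53 differences higher in SVSC were of several kinds. In 23 of them the miRNA rose in SVSC beside an IVSC change without a call, and in 8 it rose in both origins but further in SVSC. In 15 it fell in IVSC beside an SVSC change without a call, and in 1 it fell in both. The remaining 6 were the 4 opposite calls and 2 without a call in either origin. Of the 19 differences higher in IVSC, 10 were falls in SVSC beside an uncalled IVSC change, and 4 were falls in both origins that went further in SVSC. A further 2 were rises in IVSC, 1 was a rise in both origins (miR-146b), and 2 had no call in either. The differences nearest the threshold were those of miR-125a (1.01), miR-450a (1.02), miR-199b (1.02) and miR-181c (1.02) inside it, and of miR-361 (0.94), miR-1271 (0.96), miR-1 (-0.97) and let-7g (-0.99) outside it.

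At 100 CPM or more, the 10 largest positive differences that were called under all 5 scalings were those of miR-206, miR-339, miR-133a, miR-128, miR-10b, miR-423, miR-19b, miR-218, miR-148a and miR-505. miR-339 stood at 189 and 295 CPM in IVSC before and after induction and at 50.5 and 764 CPM in SVSC. Its lowest and its highest value were thus both in SVSC. The log2 response was 0.64 in IVSC and 3.92 in SVSC, a difference of 3.28 (3.15 to 3.42). miR-128, abundant in brain and present in many tissues, had 37.7, 48.8, 23.2 and 220 CPM in the same order, and its responses differed by 2.87 (2.62 to 3.12). The induced SVSC library alone was high here. miR-10b lies among the HOX genes, which set position along the body. It stood at 3980 and 7023 CPM in IVSC and at 1546 and 15493 CPM in SVSC, so that the order of the origins turned over with induction. It rose 10.0-fold in SVSC beside a ratio of 1.76 in IVSC, a difference of 2.51 (2.48 to 2.53).

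miR-206, a miRNA of skeletal muscle, owed its difference to its fall in IVSC. It stood at 4874 and, with MDI, 140 CPM in IVSC and at 2.79 and, with MDI, 1.55 CPM in SVSC. Uninduced IVSC were far above the other 3 libraries. The fall in IVSC was 34.9-fold, while SVSC had 50 and 4 reads and a ratio of 0.558 (0.146 to 1.52), and the difference was 4.28 (2.35 to 5.73). miR-133a, another muscle miRNA, stood at 78.2, 85.5, 21.6 and 199 CPM, a rise in SVSC alone and a difference of 3.07 (2.84 to 3.30). Only 1.06% of its reads lay on the annotated mature sequence, against 99.3% for miR-206, so that its values describe the rest of the hairpin. That rest includes the star strand, cut from the other arm, whose reads were not taken apart here. In SVSC miR-133a had 18 mature reads before and 0 after induction.

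The other 5 of these positive differences were smaller. miR-148a, which favours fat cell differentiation, stood at 44496 and 30375 CPM in IVSC and at 16546 and 43045 CPM in SVSC. Its log2 responses were -0.55 and 1.38, a difference of 1.93 (1.92 to 1.94), and uninduced SVSC was the lowest of the 4 libraries. miR-19b, of the proliferation-linked miR-17-92 cluster, stood at 792 and 396 CPM in IVSC and at 145 and 346 CPM in SVSC. miR-423 stood at 1684 and 903 CPM in IVSC and at 934 and 2417 CPM in SVSC. In both of them the level went down in IVSC and up in SVSC, the differences being 2.26 (2.13 to 2.38) and 2.27 (2.22 to 2.32). miR-218, encoded within SLIT genes, stood at 49.4 and 20.3 CPM in IVSC and at 80.4 and 136 CPM in SVSC, a difference of 2.04 (1.77 to 2.30). Its reads lay almost wholly off the mature sequence (0.255% on it). miR-505 rose in both origins, 2.25-fold in IVSC and 8.25-fold in SVSC.

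**Figure D3:**
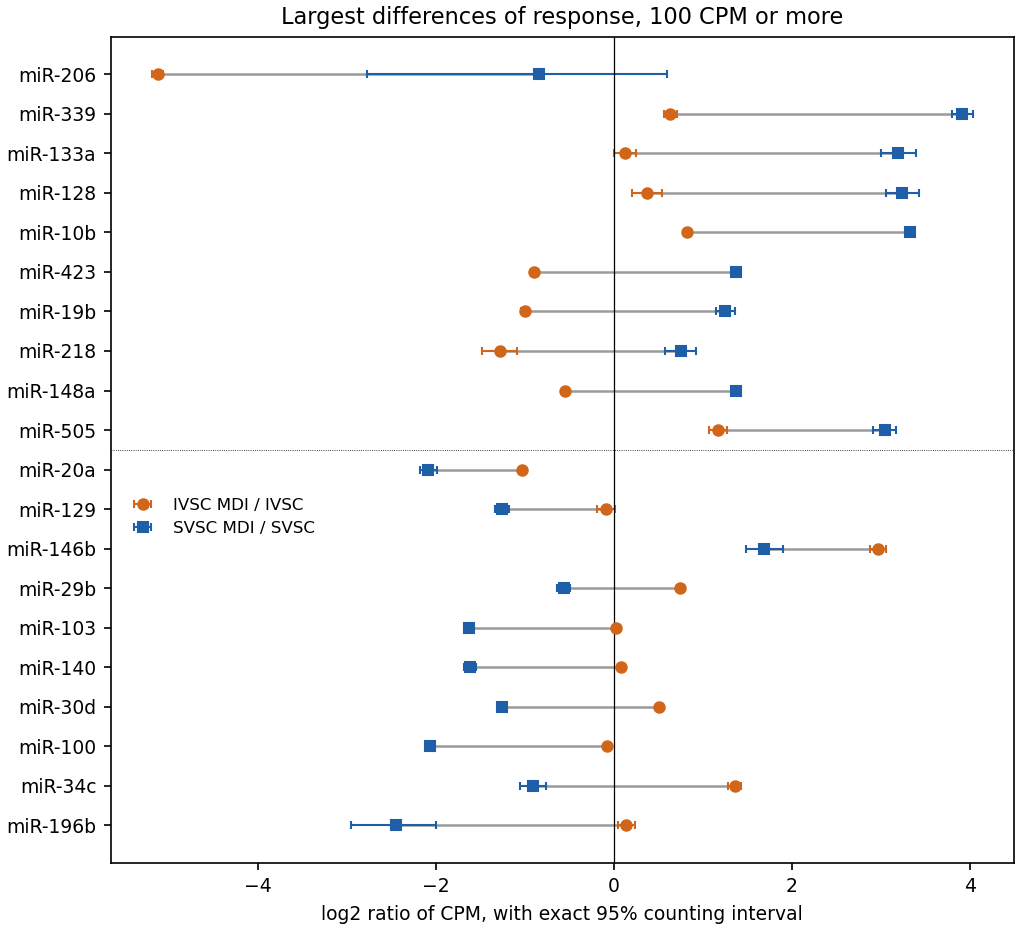
Log2 response to induction in IVSC and in SVSC, with exact 95% counting intervals, for the 20 miRNAs at 100 CPM or more with the largest positive and the most negative differences called under all 5 scalings. miR-206 runs from -5.13 in IVSC to -0.84 in SVSC, and miR-196b from 0.14 to -2.45.

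The 10 most negative differences were those of miR-196b, miR-34c, miR-100, miR-30d, miR-140, miR-103, miR-29b, miR-146b, miR-129 and miR-20a. miR-196b, like miR-10b, lies among the HOX genes. It stood at 126 and, with MDI, 139 CPM in IVSC and at 82.8 and, with MDI, 15.2 CPM in SVSC, the last resting on 39 reads. The induced SVSC library was low and the other 3 lay within 2-fold of one another. It fell 5.46-fold in SVSC beside a ratio of 1.10 in IVSC, a difference of -2.59 (-3.10 to -2.12). miR-100 stood at 2300 and 2178 CPM in IVSC and at 7594 and 1814 CPM in SVSC, so that uninduced SVSC stood above the rest. Its difference was -1.99 (-2.03 to -1.94). miR-34c, induced by p53, stood at 160 and 410 CPM in IVSC and at 312 and 166 CPM in SVSC. It rose 2.56-fold in IVSC, its ratio in SVSC was 0.533 (0.482 to 0.588), and the difference was -2.27 (-2.43 to -2.11).

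miR-140, best known from cartilage, stood at 1296 and 1370 CPM in IVSC and at 2240 and 729 CPM in SVSC, a difference of -1.70 (-1.77 to -1.63). miR-29b, which targets collagen mRNAs, stood at 660 and 1108 CPM in IVSC and at 917 and 621 CPM in SVSC, a difference of -1.31 (-1.40 to -1.23). miR-129, a brain miRNA, stood at 116 and 110 CPM in IVSC and at 1350 and 567 CPM in SVSC. These 3 had their highest level in SVSC before induction or, for miR-29b, in induced IVSC. At most 10.1% of their reads lay on the mature sequence. miR-146b, which restrains inflammatory signalling, rose in both origins, from 88.6 to 694 CPM in IVSC and from 33.3 to 108 CPM in SVSC. Its difference of -1.28 (-1.50 to -1.05) became 0.30 (-0.25 to 0.87) on the reads of the mature sequence alone. With these reads scaled to their own total it was 0.54. miR-20a, of the miR-17-92 cluster, fell 2.04-fold in IVSC and 4.24-fold in SVSC, a difference of -1.05. It was -1.07 on mature reads and 0.23 on exactly matching mature reads scaled to their own total.

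A response in 1 origin only was counted where the miRNA was called in one origin, stood within 0.5 on the log2 scale in the other and differed between them by a call. This held in SVSC for 21 of the 155 (13.5%), 12 of which rose and 9 fell, and in IVSC for 6 (3.87%), 1 of which rose and 5 fell. In SVSC the rises were those of miR-128, miR-133a, miR-1296, miR-142, miR-92a, miR-532, miR-28, miR-484, miR-23a, miR-199a, miR-199b and miR-19a. The falls were those of miR-196b, miR-100, miR-181d, miR-1277, miR-103, miR-140, miR-628, miR-129 and let-7a. Under all 5 scalings 14 of the 21 held. miR-128 held under 4, and miR-199a, miR-199b, miR-19a, miR-23a, miR-28 and miR-532 under miRNA reads alone. In IVSC only, miR-1285 rose, and miR-378, miR-381, miR-181c, miR-195 and miR-214 fell. Of these 6, miR-1285 held under all 5 scalings, miR-378 under 2 and the other 4 under miRNA reads alone. Among the miRNAs named here, miR-1296 had passed the abundance filter through induced SVSC alone, and miR-181c through uninduced IVSC alone. The filter favoured their responses, which are therefore not read as support. With the limit in the other origin at 0.25, the counts were 16 and 2. Some of these miRNAs had few reads on the annotated mature sequence, so that their values describe mostly the rest of the hairpin, star strand included. Among them were miR-1285 and miR-1296 (0.72% each), miR-142 (5.96%) and miR-140 (8.80%). On its mature reads miR-140 had log2 responses of 0.69 in IVSC and -0.03 in SVSC.

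Among families, with the reads of the members summed, miR-103 and miR-107 responded in SVSC only under all 5 scalings. These miRNAs lie within introns of the PANK genes and act on insulin sensitivity in fat. Together they held 2733 and, with MDI, 2765 CPM in IVSC and 7072 and, with MDI, 2294 CPM in SVSC. Uninduced SVSC stood alone and the other 3 libraries were alike. The pooled log2 response was 0.02 in IVSC and -1.62 in SVSC, a difference of -1.64 (-1.68 to -1.60). miR-103 carried nearly all of these reads, and its own difference was -1.66 (-1.70 to -1.61). miR-107, at 44.2 and 26.3 CPM in IVSC and at 91.0 and 37.7 CPM in SVSC, differed by -0.52 without a call.

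The miR-199 and miR-214 group, which marks mesenchymal cells, also responded in SVSC only, but under miRNA reads alone. It held 8378 and 8261 CPM in IVSC and 5455 and 11343 CPM in SVSC, a pooled difference of 1.08 that was 0.37 to 0.67 under the other 4 scalings. Within it miR-199a rose in SVSC alone (difference 1.15) and miR-199b likewise (1.02). miR-214 fell in IVSC alone, from 519 to 246 CPM, beside 443 and 540 CPM in SVSC. The let-7 family, which opposes fat cell differentiation, had pooled log2 responses of 0.16 in IVSC and -0.52 in SVSC. Its difference of -0.68 lay short of the threshold under miRNA reads and was called under the other 4 scalings. With TMM (log2 responses of 0.12 in IVSC and -1.02 in SVSC) and likewise with all reads the summed family responded in SVSC only. let-7a was the 1 member of 7 with a called difference. It stood at 16198 and 15046 CPM in IVSC and at 45846 and 20890 CPM in SVSC, and it responded in SVSC only under all 5 scalings. The members split, with a median difference of -0.21. let-7f (-0.54), let-7g (-0.99) and miR-98 (-0.21) were negative without a call. let-7e (0.73), let-7c (0.53) and let-7i (0.23) were positive without a call, and let-7e rose 2.63-fold in SVSC.

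The DLK1-DIO3 locus was the 1 group whose summed reads responded in IVSC only, under miRNA reads alone. Its detected miRNAs held 4627 and, with MDI, 1125 CPM in IVSC and 397 and, with MDI, 309.7 CPM in SVSC. The order of the libraries was the same for miR-381, which carried most of the reads, at 3051, 665, 268 and 199 CPM. The pooled log2 response was -2.04 in IVSC and -0.36 in SVSC, a difference of 1.68 (1.57 to 1.79) that was 0.98 to 1.27 under the other scalings. miR-381 had only 0.0468% of its reads on the annotated mature sequence (11, 14, 0 and 1 reads). The sum therefore describes mostly other parts of hairpins, star strands included. Of the 34 miRNAs listed 15 had reads and 11 passed the abundance filter. Of these 11, 8 fell in IVSC and 1 rose, beside 23.2% and 16.8% of all 155. In SVSC 4 rose and none fell, beside 34.8% and 20.6%. The 11 differences ran from 0.33 to 3.55 with a median of 1.63, beside a median of 0.53 over all 155. The median of the 11 was positive under all 5 scalings, but miR-369 was negative under the 4 others than miRNA reads. Of these differences 7 were called higher in SVSC (beside 34.2% of all 155), and 4 of the calls held under all 5 scalings (miR-136, miR-376c, miR-381 and miR-494). Of the 11, 3 had passed the filter through uninduced IVSC alone.

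Several groups split within themselves. Of the miR-30 family, 3 members rose in both origins and further in SVSC, with differences of 1.56 for miR-30b, 1.21 for miR-30c and 1.13 for miR-30a. Those 3 calls were not made under all 5 scalings. miR-30d stood at 4570 and 6484 CPM in IVSC and at 9264 and 3876 CPM in SVSC, a difference of -1.76 (-1.79 to -1.73), and miR-30e had -0.56. That of miR-30e joined opposite values, -2.07 (-2.11 to -2.02) on the mature sequence and 1.10 (1.06 to 1.14) on the rest of the hairpin. The summed family thus differed by -0.59 under miRNA reads and by -0.99 with DESeq2 size factors, both without a call. It was called higher in IVSC with TMM (-1.05), with all reads (-1.29) and without miR-21 (-1.07). In the miR-17-92 clusters 3 members of 8 were called higher in SVSC (miR-19a, miR-19b and miR-92a) and 2 higher in IVSC (miR-20a and miR-363), beside 34.2% and 12.3% of all 155, and all but that of miR-19a held under all 5 scalings. The pooled difference was 0.24. Of the miR-181 family, miR-181c had 1.02 and miR-181d -1.40, on 17 and 12 reads in SVSC MDI. miR-181c had passed the abundance filter through uninduced IVSC alone.

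The summed HOX cluster miRNAs held 4911 and 7882 CPM in IVSC and 2277 and 16135 CPM in SVSC, a difference of 2.14 (2.12 to 2.17) called under all 5 scalings. miR-10b made up most of this sum and rose in SVSC, while miR-196b fell there and miR-10a had a difference of 0.13. The miR-148 and miR-152 family differed by 1.55, called under 4 scalings and carried by miR-148a. miR-148b and miR-152 fell in both origins, with differences of -0.23 and -0.04. In the family of miR-15 and miR-16, 4 of 7 members were higher in SVSC and none higher in IVSC (miR-15b 1.72, miR-497 1.64, miR-503 1.51 and miR-195 1.30), beside 34.2% and 12.3% of all 155. The call of miR-15b alone held under all 5 scalings. The median of 1.30 stayed positive under all 5 scalings, and the pooled difference was 0.62, without a call.

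The pooled miR-221 and miR-222, which act on cell cycle inhibitors, differed by 1.12 under miRNA reads and by 0.42 to 0.72, without a call, under the other scalings. miR-221 differed by 1.17 in total, by 0.44 (0.34 to 0.54) on the mature sequence and by 1.47 (1.34 to 1.60) on the rest. The pooled miR-99, miR-100 and miR-125 families differed by -0.73 without a call under miRNA reads and by -1.44 to -1.14, called, under the other 4. The sum followed miR-100 (-1.99), and the other members went the other way. miR-99a (1.09) and miR-125a (1.01) were called higher in SVSC, though not under all 5 scalings. miR-99b (0.55) and miR-125b (0.51) were positive without a call. Members of 3 further groups differed by less than 2-fold between the origins under miRNA reads, which does not show that they responded alike. miR-143 and miR-145, of smooth muscle and mesenchymal cells, had differences of 0.46 and 0.65, miR-145 rising in both. The brown fat linked miR-193a, miR-365 and miR-455 had 0.88, 0.34 and 0.63. miR-130a and miR-130b, repressors of PPARγ, fell in both origins with differences of -0.07 and -0.25. Among 17 compared miRNAs reported to promote adipogenesis, 6 were higher in SVSC and 4 higher in IVSC, beside 34.2% and 12.3% of all 155, and 2 and 4 of these held under all 5 scalings. Among 15 reported to inhibit it, 1 was higher in SVSC (miR-221, not under all 5 scalings) and 1 higher in IVSC (let-7a), beside the same shares. Their medians were -0.51 and 0.23, beside 0.53 for all 155, and the latter was negative under the other 4 scalings. The pooled inhibitors differed by -0.46, and by -1.16, called, under all reads.

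The 4 miRNAs called in opposite directions were at low levels. miR-133b, of the same primary transcript as miR-206, stood at 68.8 and, with MDI, 16.5 CPM in IVSC and at 1.34 and, with MDI, 16.3 CPM in SVSC. The induced libraries were level, and the uninduced ones were the highest and the lowest. SVSC had 24 and 42 reads, and the difference was 5.67 (4.88 to 6.49). miR-184, known from the lens and cornea, stood at 18.0 and 4.79 CPM in IVSC and at 4.13 and 20.2 CPM in SVSC, a difference of 4.20 (3.53 to 4.87). miR-136 and miR-376c, both of the DLK1-DIO3 locus, had 46 and 19 reads and 12 and 9 reads in SVSC before and after induction. Their differences were 2.80 (1.91 to 3.65) and 3.55 (2.09 to 4.96), and miR-376c had passed the abundance filter through uninduced IVSC alone.

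Whether induction brought the origins together depended on the measure. The log2 ratio of SVSC over IVSC was taken before and after induction, and the change from one to the other is the difference of response. The origins were closer after induction for 88 of the 155 miRNAs (56.8%), 84 to 87 under the other scalings, and for 56 of the 110 at 100 CPM or more. They were 2-fold apart for 45 miRNAs before (29%) and 45 after (29%). Before induction 11 of these were higher in SVSC (7.1%) and 34 in IVSC (21.9%), and after it 26 (16.8%) and 19 (12.3%). Under TMM, DESeq2 size factors and miRNA reads without miR-21 there were 54 before and 44 or 45 after, and under all reads 46 and 45. The median absolute log2 ratio was 0.68 before and 0.58 after, but 0.69 and 0.71 under all reads.

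Induction changed which miRNAs were apart. Of the 45 before, 24 lay under 2-fold after induction, and of the 45 after, 24 had been under 2-fold. Another 21 were apart in both states, 15 in the same direction and 6 with the origins exchanged, namely miR-10b, miR-133a, miR-184, miR-339, miR-676 and miR-4334. The ratios before and after share no library. Across the 155 their Pearson r was 0.51 and their Spearman rho 0.19, and 83 (53.5%) kept their direction. Over the 139 miRNAs outside the skeletal muscle and DLK1-DIO3 lists, Pearson r was 0.08. miRNAs are not independent replicates, and the points share the depth of the libraries.

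The widest gaps narrowed. The SD of the log2 ratio over miRNAs was 1.59 before and 1.16 after, while counting error alone would give an SD of 0.17 and 0.20. Ratios of 3 or more on the log2 scale were found for 13 miRNAs before and 2 after. Of these 13, 11 belong to the skeletal muscle and DLK1-DIO3 lists, and all 11 had been higher in IVSC. The abundance filter favours such gaps: miR-376b, miR-376c and miR-382 of the DLK1-DIO3 locus reached 10 CPM in uninduced IVSC alone, and miR-376a in IVSC MDI alone. Counts over these lists are therefore not read as support. Among the other 139 miRNAs the SD was 0.98 before and 0.92 after, 31 and 34 were 2-fold apart, and 72 (51.8%) were closer after. Both lists were chosen with these data known.

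**Figure D4:**
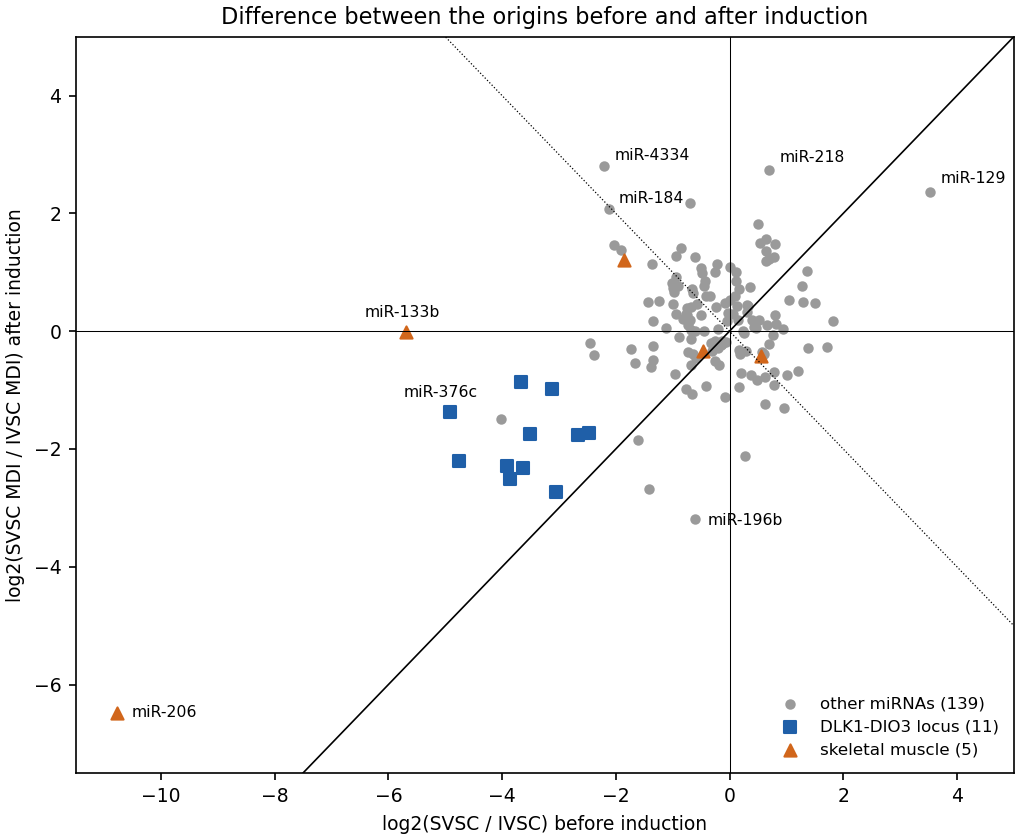
Log2 ratio of SVSC over IVSC before induction (horizontal) and after it (vertical) for 155 miRNAs, with the DLK1-DIO3 locus (squares) and skeletal muscle miRNAs (triangles) marked, the line of an unchanged ratio (solid) and that of an exchanged one (dotted). The marked miRNAs reach furthest left, miR-206 at -10.77 before and -6.49 after, while the other miRNAs keep much the same spread on both axes.

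At 100 CPM or more, the gap narrowed the most for miR-206, miR-19b, miR-381, miR-411, miR-100 and miR-32. miR-206 went from 1748-fold to 89.8-fold lower in SVSC, and miR-381 from 11.4-fold to 3.35-fold. miR-19b, 5.47-fold lower in SVSC before, had a ratio of 0.873 (0.813 to 0.937) after. miR-32 stood at 422 and 128 CPM in IVSC and SVSC before induction and at 761 and 619 CPM after it. In these 4 IVSC had been the higher, as it had been in miR-411 (437 CPM beside 28.9 CPM), while in miR-100 SVSC had been, by 3.30-fold.

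The gap widened the most for miR-196b, miR-218, miR-128, miR-28, miR-146b and miR-20a. miR-196b was 9.15-fold lower in induced SVSC than in induced IVSC, beside 1.52-fold before. miR-218 was 6.67-fold higher in SVSC (5.70 to 7.81), beside 1.63-fold before, and miR-128 4.50-fold higher (4.02 to 5.03). miR-28 stood at 498 and 705 CPM in IVSC and SVSC before and at 613 and 2154 CPM after, so that its gap grew with the SVSC rise. None of its reads was assigned to the mature sequence. miR-146b was 2.66-fold lower in SVSC before and 6.44-fold lower after, and miR-20a went from 1.05-fold to 2.18-fold lower.

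Weighted by abundance, the origins came together. The Bray-Curtis distance, which is 0 for equal shares of reads and 1 for no shared reads, was 0.221 between IVSC and SVSC and 0.0904 between IVSC MDI and SVSC MDI. The distance moved by induction was 0.114 in IVSC and 0.252 in SVSC, and uninduced IVSC lay at 0.113 from SVSC MDI. The uninduced SVSC library was thus the one farthest from the other 3. Most of the gap before induction lay in 3 miRNAs. miR-21, abundant in growing cells, took 14.5 percentage points more of the reads in SVSC than in IVSC before induction and 7.32 fewer after it. miR-143 went from 9.43 points fewer in SVSC to 0.239 more. Only 0.0517% of its reads lay on the mature sequence, where its difference of response was 0.11 (-0.05 to 0.27) beside 0.46 in total. miR-378, of an intron of the PGC-1β coactivator gene, went from 6.52 points fewer to 2.44 more. Without miR-21 the distances were 0.177 and 0.0896, and without these 3 miRNAs they were 0.293 and 0.144.

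**Figure D5:**
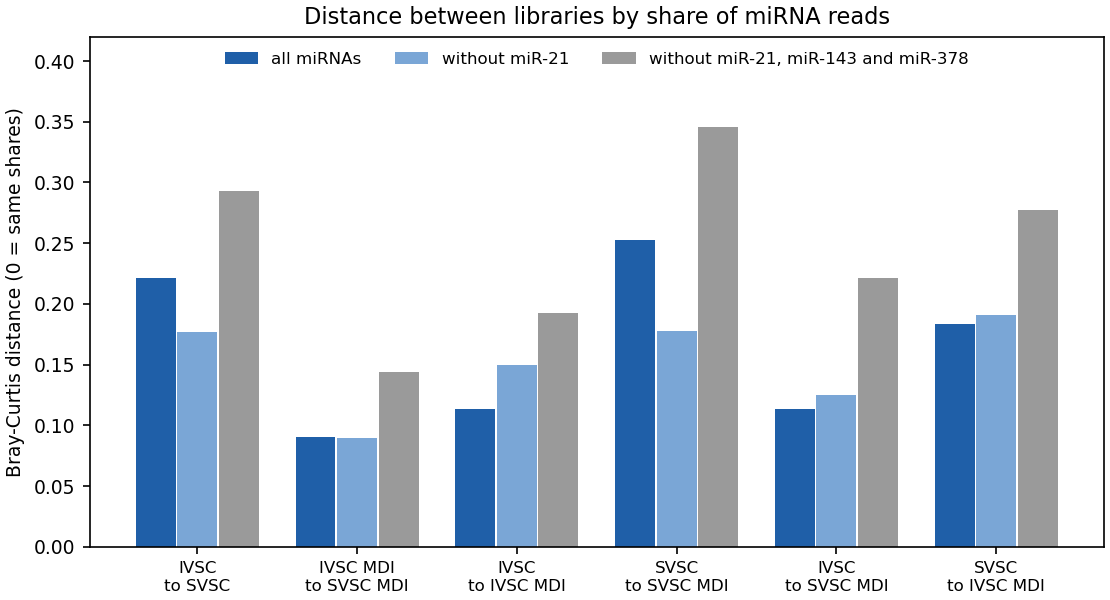
Bray-Curtis distance between pairs of libraries by share of miRNA reads (bars, from 0), for all miRNAs, without the most abundant one and without the 3 most abundant. The origins are 0.221 apart before induction and 0.0904 after it over all miRNAs.

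The differences were also set beside one another within hairpins and between neighbouring hairpins, as a description, since the parts of a hairpin add up to the total contrasted above. In 91 hairpins with 20 reads or more on the mature sequence and on the rest in every library, the difference of response had the same sign on both in 62. miR-339 had 3.28 on the mature sequence and 3.42 on the rest. For miR-30d these were -1.90 and 0.06, so that its call came from the mature sequence. In 37 pairs of hairpins within 10 kb of each other in the Sscrofa11.1 gene table, the median gap between the 2 differences was 0.83, beside 1.25 over all pairs, and 59.5% of them lay under 1, beside 41.0%. Neighbours can share a primary transcript and are not independent. In 4 pairs the neighbours were called in opposite directions. These were miR-30b and miR-30d, miR-181c and miR-181d, miR-362 and miR-532, and miR-19a and miR-20a.

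Markers of other cell types were read beside these results. The skeletal muscle list had reads for 6 of 7 members, with a summed level of 6280 and, with MDI, 1139 CPM in IVSC and 1856 and, with MDI, 891 CPM in SVSC. In SVSC the sum was mostly miR-1, at 1818 and 661 CPM. Of 5 members compared, the difference of response was called higher in SVSC for 3 and higher in IVSC for none, beside 34.2% and 12.3% of all 155, although the summed level was the higher in IVSC. The blood cell list had reads for 3 of 6 members (467, 409, 423 and 354 CPM in the same order). Most of this sum was miR-155 (432, 377, 416 and 332 CPM), without a call in either origin and with 0.91% of its reads on the mature sequence. miR-142 rose in SVSC, on 97 and 50 reads, of which 3 and 0 lay on the mature sequence. The endothelial miR-126 stood at 134, 89.6, 52.6 and 63.7 CPM. The neuronal list had reads for 4 of 5 members, summing to 656, 216, 1750 and 800 CPM, mostly miR-7 and miR-129. The neuronal miR-124a had 0 reads in 3 libraries and 1 in SVSC MDI. The liver miR-122, with 6.75% of its reads on the mature sequence, fell in both origins, to 5 reads in SVSC MDI. The epithelial list had reads for 2 of 10 members, miR-183 at 27.7 to 94.8 CPM and miR-205 at no more than 9 reads. The part of other cells in the differences was not tested.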

How the data were processed

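Small RNA was sequenced from 4 libraries, 1 for each group, with 36 cycles on fragments of 16 to 35 nt from about 10 µg of total RNA after 12 cycles of PCR, per the labels' protocols. The deposited values are read counts per feature: per the file headers, the authors grouped trimmed reads by resource (pig hairpins, Ensembl non-coding RNAs of Sscrofa 9.61, piRNAs and Rfam). The files give reads on the mature sequence, the star strand and the whole hairpin. Which aligner was used, with which mismatches, was not given in the sources used here, and the submitters' processing notes name mm9 without a role. The files' coordinates were not used.

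The total column of the pig hairpins was used. Copies of a miRNA share reads, so each miRNA was counted once per library, as its largest copy plus the uniquely matching mature reads of the others. miR-18 and miR-20 (2 miRNAs) were renamed miR-18a and miR-20a through synonyms of a pig gene table. Features with no resource name, 3 in SVSC and 1 in SVSC MDI, were left out. Counts were scaled to CPM over miRNA reads. Counts of 0 took a floor of 3 reads. Ratios carry exact Clopper-Pearson intervals, and differences of ratios exact conditional intervals (SciPy 1.17.1, NumPy 2.4.6, pandas 2.3.3, Python 3.11.15), checked on simulated data. TMM factors came from edgeR 4.0.16 (limma 3.58.1) and size factors from DESeq2 1.42.0 in R 4.3.3, with no test of either tool. Figures were drawn with matplotlib 3.10.9. Without molecular identifiers PCR reads are not independent molecules, so intervals and floors cover counting error only.

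The miRNAs and lists were chosen with earlier results of these data known. Named miRNAs were, at 100 CPM or more, the 10 largest differences each way among those called under all 5 scalings, those responding in 1 origin only and the 6 gaps that changed the most each way. The most abundant miRNAs, called members of the lists and opposite calls at 10 CPM or more were named too. The miRNAs on either side of the threshold, the 6 with exchanged origins, neighbours in opposite directions and those responding in 1 origin below 100 CPM were named after their values were seen. Alternatives covered the scaling, the abundance filter, the copies, mature reads, the floor and the limit for 1 origin only. Entries of piRNAs and Rfam were left aside.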

Additional observations from a re-analysis of the deposited data

Results flagged for a closer look

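miRNAs called in opposite directions by induction, a fall in IVSC and a rise in SVSC, numbered 4. The log2 difference of response was 5.67 for miR-133b, 4.20 for miR-184, 3.55 for miR-376c and 2.80 for miR-136. With 1 library per group these differences between the origins were not tested. All 4 rest on 74 reads or fewer in each SVSC library.

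In SVSC MDI 38.5% of the reads lay on Ensembl non-coding RNAs other than the hairpins, a class that the comparisons leave out. The share was 15.7% in uninduced SVSC, 19.3% in IVSC and 14.0% in IVSC MDI. This is the library on which each SVSC response rests, and scaling to all reads moved the differences by -0.70.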

How the results depend on the processing

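The scaling set the balance of calls. Differences higher in SVSC and higher in IVSC numbered 53 and 19 under miRNA reads, 30 and 31 with TMM, 33 and 29 with the size factors of DESeq2, 24 and 42 when scaled to all reads, and 29 and 32 without the most abundant miRNA. With the median difference set to 0, an alternative chosen after seeing the data, they numbered 28 and 36. At 100 CPM or more, where fewer miRNAs were compared, they numbered 32 and 11, with 3 responding in IVSC only, 56 closer after induction and 25 apart before it. On exactly matching mature reads 27 were higher in SVSC. With the limit of 0.25 in the other origin 2 responded in IVSC only. Of the 72 calls, 57 could be compared on mature reads and 48 of these held, 52 on exactly matching ones and 32 held, and 63 of the 72 held with copies summed. In these comparisons mature and exactly matching reads were each scaled to their own total, so that the scaling changed along with the reads. miR-146b reversed to 0.54 on mature and 1.35 on exactly matching reads, and miR-20a to 0.23 on the latter. Under the scaling to miRNA reads, mature miR-146b had 0.30 (-0.25 to 0.87). The cause was not tested.

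The median absolute log2 ratio between the origins, 0.68 before and 0.58 after, was 0.65 before with TMM, 0.65 and 0.56 with DESeq2 factors, and 0.66 and 0.57 without the most abundant miRNA. It was 0.71 after with all reads, 0.73 and 0.66 without an abundance filter, 0.62 and 0.48 at 100 CPM, 0.67 and 0.57 with copies summed, 0.77 and 0.63 on mature reads, and 0.70 and 0.62 on exactly matching ones. The Bray-Curtis distance was 0.230 and 0.0980 with copies summed, 0.146 after on mature reads, and 0.277 and 0.0657 on exactly matching ones. As alternatives chosen after seeing the data it was 0.177 before without the most abundant miRNA, and 0.293 and 0.144 without the 3 most abundant. The SD was 1.47 and 1.16 at 100 CPM and 0.98 and 0.92 without the muscle and DLK1-DIO3 lists, also chosen afterwards. The Bray-Curtis distance was smaller after induction under each setting given for it, while the median absolute log2 ratio was not smaller after it with all reads. SVSC MDI limits the precision, 10 CPM there being 25.7 reads. No paired analysis was possible because each group has 1 library.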
